A study of Mus musculus with 12 samples.

Results

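Immediate early genes of the pancreatic islet were followed through 10 named genes: Fos, Fosb, Fosl2, Jun, Junb, Jund, Egr1, Atf3, Nr4a1 and Ier2. They were taken from the count table by gene symbol, not by their values, and are 10 of 37991 listed genes and of 15961 genes with enough counts to be tested. All 10 passed that filter. The data are bulk RNA-seq of whole pancreatic islets of Tg7 mice, which overexpress miR-7a2 in β-cells only, and of Wt littermates without the transgene. All mice were C57BL/6 males, aged 2w or 12w, and each of the 4 groups (2w Wt, 2w Tg7, 12w Wt and 12w Tg7) had 3 libraries. RNA of at least 3 animals was pooled for each library, so p values measure the spread between pools, which hides differences between single mice. Tg7 mice are a model of β-cell dedifferentiation that is normoglycaemic at 2w and diabetic at 12w, so that at 12w genotype and glycaemia cannot be told apart. Whole islets also hold endocrine cells without the transgene, vessels and stroma, and in bulk RNA fewer cells of a type and less RNA per cell cannot be told apart.

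Immediate early genes are transcribed within minutes of a stimulus, from factors that are already present in the cell. MAP kinases acting on SRF and its partners, and calcium and cAMP acting on CREB, are the best known routes to their promoters. In β-cells glucose, membrane depolarisation and incretin hormones switch many of them on, and tissue handling such as enzymatic dissociation does so in most cell types. Most of the proteins are short-lived transcription factors. Fos and Jun family proteins pair to form AP-1, Egr1 is a zinc finger activator, Atf3 is a stress-induced member of the ATF/CREB family, Nr4a1 is an orphan nuclear receptor and Ier2 is a small nuclear protein.

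The sequences that bear on these genes are the overexpressed miRNA, its match in a member, and the promoters of the members that differed between genotypes at 12w. In miR-7a-5p (RefSeq, GRCm38.p6, chr7:78888295-78888317, plus strand) the capitals mark the seed, bases 2 to 8.
miR-7a-5p: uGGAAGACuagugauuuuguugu
The complement of this seed, GTCTTCC, occurred in the annotated 3′ UTR of 1 of the 10 members, Fos, at chr12:86817486-86817492 on the plus strand of mm9. It occurred in 14.4% of 14406 tested protein-coding genes with an annotated 3′ UTR. The site is shown in capitals within chr12:86817474-86817503.
Fos site: gaggagaaacacGTCTTCCctcgaaggttc
Such a match is a string of letters and not evidence that the miRNA acts there.

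Promoter windows ran from 250 bases before to 50 bases after the annotated transcription start (RefSeq, GRCm38.p6). The set of windows used here held 8 of 10 members and lacked Egr1 and Ier2. Both strands were searched for TGACG, the core of the cAMP response element, for GCGNGGGCG, the Egr motif, for TGANTCA, the AP-1 motif, for the full palindrome TGACGTCA, which contains TGACG on both strands, and for the CArG box bound by SRF. TGACG occurred in Fos, Fosb, Junb, Atf3 and Nr4a1, against 20.8% of 32851 promoters of the same length. The Egr motif occurred in Fosb, Fosl2 and Nr4a1, against 5.55% of promoters. None of the 8 windows held TGANTCA, TGACGTCA or a CArG box, which were present in 7.81%, 1.79% and 1.63% of promoters. Sites outside these windows, or that differ from these strings, were not searched for. The windows of Nr4a1 (chr15:101266596-101266895, plus strand), Junb (chr8:84978699-84978998, minus strand) and Jund (chr8:70697489-70697788, plus strand) are printed because these genes differed at 12w, Junb in the opposite direction to the other two. Capitals mark TGACG and the Egr motif on either strand.
Nr4a1: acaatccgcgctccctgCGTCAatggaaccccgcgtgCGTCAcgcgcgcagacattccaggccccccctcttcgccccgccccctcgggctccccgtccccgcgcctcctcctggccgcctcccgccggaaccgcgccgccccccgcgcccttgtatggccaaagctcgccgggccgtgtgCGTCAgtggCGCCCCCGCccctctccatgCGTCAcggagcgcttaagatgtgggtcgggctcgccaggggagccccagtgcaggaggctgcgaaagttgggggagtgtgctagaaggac
Junb: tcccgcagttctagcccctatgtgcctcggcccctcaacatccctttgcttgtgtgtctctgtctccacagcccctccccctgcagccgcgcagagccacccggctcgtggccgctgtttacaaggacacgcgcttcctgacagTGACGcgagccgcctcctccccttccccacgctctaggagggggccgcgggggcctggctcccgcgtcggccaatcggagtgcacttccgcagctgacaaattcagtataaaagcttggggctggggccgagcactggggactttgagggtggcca
Jund: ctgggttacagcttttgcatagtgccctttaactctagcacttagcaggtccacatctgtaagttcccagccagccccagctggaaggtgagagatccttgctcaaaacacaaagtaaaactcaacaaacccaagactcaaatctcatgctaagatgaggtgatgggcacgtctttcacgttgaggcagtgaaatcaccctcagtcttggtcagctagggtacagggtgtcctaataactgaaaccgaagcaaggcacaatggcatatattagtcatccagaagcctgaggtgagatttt
Nr4a1 carried 4 TGACG matches, 233, 213, 69 and 40 bases before the start, and 1 Egr motif at 60 bases. Promoters with 4 or more TGACG, a cut equal to the count in Nr4a1, made up 0.231% of all promoters. Junb had 1 match at 106 bases and Jund had none.

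Libraries held between 11610697 and 17515758 counts. Counts are given as CPM, a gene's share of the counts of its library on a common scale, after TMM scaling in edgeR, whose factors lay between 0.684 and 1.191 and were lowest in 12w Wt islets. Ins1 and Ins2 took 1.84% to 29.99% of all counts of a library. Genotypes were compared at 2w and at 12w with the quasi-likelihood test of edgeR, in a model of all 4 groups, with Benjamini-Hochberg adjustment over the 15961 tested genes, and a gene is called where the adjusted p is below 0.05. Islet markers dominated: the summed level of 8 β-cell markers was at least 27280 CPM and that of 5 alpha cell markers at least 25580 CPM in each library, while 10 acinar markers summed to between 17.1 and 33.99 CPM.

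At 12w, 5 of the 10 genes were called between Tg7 and Wt islets, beside 23.6% of all tested genes. Egr1, Junb and Ier2 were higher in Tg7 islets, beside 12.5% of tested genes called higher, and Jund and Nr4a1 were lower, beside 11.2% called lower. At 2w none of the 10 was called, beside 10.6% of all genes (6.07% higher and 4.55% lower): 2 of them, Fos and Nr4a1, had an unadjusted p below 0.05 in edgeR, and DESeq2 also called 0. The 12w count was 3 of 10 when Tg7 12w replicate 1 or 3 was omitted. Calls over all tested genes then also fell, from 3772 of 15961 to 2522 of 16413 and 2418 of 16405. The median log2 fold change of the 10 was −0.03 at 2w and −0.29 at 12w, beside 0.03 and −0.01 over all tested genes. Groups did not overlap for 3 of the 10 at 2w and for 4 at 12w, beside 35.9% and 37.1% of all tested genes.

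**Figure D1:**
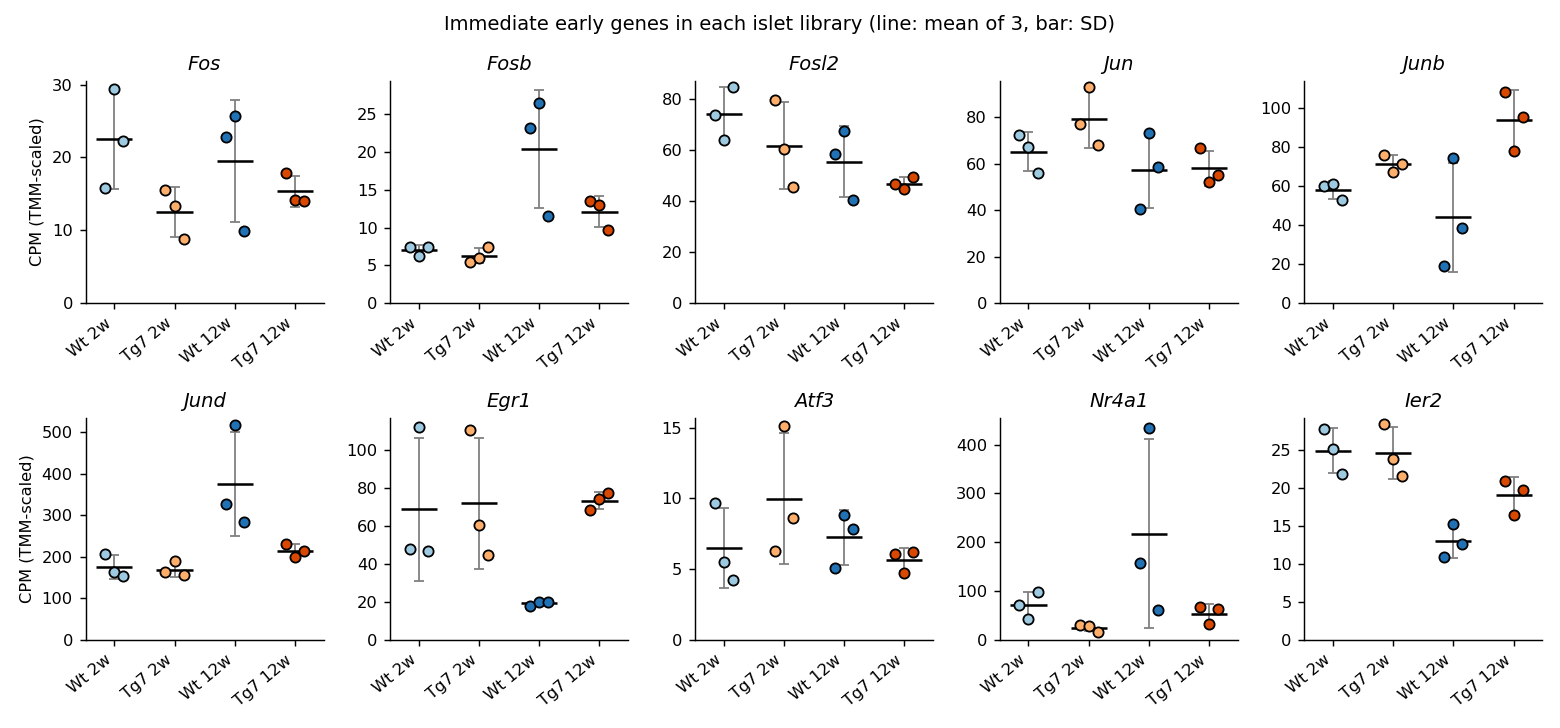
CPM (TMM-scaled, linear axis from 0) of each immediate early gene in each of the 12 islet libraries; points are libraries, the black line is the mean of 3 and the grey bar is the SD. The 12w Tg7 libraries lie above all 12w Wt libraries for Egr1, Junb and Ier2 and below them for Jund, while the Nr4a1 libraries overlap.

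Egr1 encodes a zinc finger activator that glucose and growth factors induce in β-cells; it spans chr18:35020861-35024638 on the plus strand of mm9. In 12w Wt islets its 3 libraries lay at 17.8, 19.7 and 20 CPM, and in 12w Tg7 islets at 68.5, 74.1 and 77.5 CPM. The groups were far apart, and replicates agreed within 1.13-fold in both. The mean was 73.4 ± 4.52 CPM in Tg7 and 19.2 ± 1.21 CPM in Wt islets (SD, n = 3), a log2 fold change of 1.93 (SE 0.35, edgeR adjusted p = 0.00135). That call was kept with each 12w library left out, with log2 fold changes from 1.86 to 2.00, and in each alternative fit.

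At 2w Egr1 did not separate the genotypes. The Wt libraries lay at 47.7, 112.5 and 46.6 CPM and the Tg7 libraries at 110.9, 60.7 and 44.6 CPM. A single library of each group was high, so the highest was 2.41 times the lowest in Wt and 2.49 times in Tg7 islets. The log2 fold change was 0.07, with a 95% interval from −0.64 to 0.77. Between 2w and 12w Egr1 fell by 1.84 on the log2 scale in Wt islets (SE 0.35, edgeR adjusted p = 0.003), where no 12w library reached the lowest 2w library. In Tg7 islets the change with age was 0.03, with an interval from −0.68 to 0.73.

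For the difference between these age changes, which is also that between the Tg7 effects at 12w and 2w, Egr1 gave 1.87 on the log2 scale (SE 0.48, unadjusted p = 0.00159 and adjusted p = 0.0791 in edgeR). It did not pass the threshold. DESeq2 called it (1.86, adjusted p = 0.00532), as did edgeR with scaling by library size alone (2.15, adjusted p = 0.0437), without the filter on low counts (1.88, adjusted p = 0.00334) and without Tg7 2w replicate 1, the high library (2.34, adjusted p = 0.0183). None of the 10 genes was called for this difference in edgeR, beside 1.18% of tested genes (0.871% higher and 0.307% lower); 3 had an unadjusted p below 0.05 (Egr1, Jund and Ier2) and DESeq2 called 1, Egr1. Gm17507, an antisense gene that overlaps Egr1, had 0 to 3 counts per library against 141 to 2079 for Egr1.

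Junb (chr8:87500811-87502617, minus strand, mm9) encodes an AP-1 subunit that is a weaker activator than Jun. Its 12w Wt libraries spread over 19.2, 74.2 and 38.6 CPM, and its 12w Tg7 libraries lay at 108.3, 77.7 and 95.03 CPM. All Tg7 libraries were higher, the lowest of them just above Wt replicate 2. Means were 93.7 ± 15.4 CPM in Tg7 and 44.0 ± 27.9 CPM in Wt islets (SD, n = 3), a log2 fold change of 1.08 (SE 0.32, edgeR adjusted p = 0.0243). The call was lost without Wt 12w replicate 4 (0.98, adjusted p = 0.0579), Tg7 12w replicate 1 (0.98, adjusted p = 0.0819) or Tg7 12w replicate 3 (1.07, adjusted p = 0.0652), and in edgeR on the 12w libraries alone (1.06, adjusted p = 0.0844). It was kept without Wt 12w replicate 2, at 1.68, and without Wt 12w replicate 1, at 0.71 (adjusted p = 0.037).

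At 2w Junb was 71.3 ± 4.23 CPM in Tg7 and 57.8 ± 4.56 CPM in Wt islets (SD, n = 3). The groups did not overlap, at 67.2 to 75.6 against 52.6 to 60.9 CPM, but the log2 fold change of 0.30 (95% interval −0.37 to 0.97) did not pass the test. Neither change with age was called, with log2 fold changes of −0.38 in Wt and 0.39 in Tg7 islets. Without Wt 12w replicate 2, both the fall with age in Wt islets (−0.98, edgeR adjusted p = 0.0144) and the difference of the Tg7 effects (1.38, adjusted p = 0.0455) were called.

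Jund (chr8:73221638-73224515, plus strand, mm9) encodes the Jun family member that is expressed in resting cells. At 12w its Wt libraries lay at 326.2, 516.6 and 283.1 CPM and its Tg7 libraries at 231.5, 199.3 and 214.0 CPM. Each Tg7 library was below each Wt library. The mean was 215 ± 16.1 CPM in Tg7 and 375 ± 124 CPM in Wt islets (SD, n = 3), and the log2 fold change was −0.80 (SE 0.20, edgeR adjusted p = 0.00915). It stayed called with each library left out, at −0.97 to −0.50, the smallest change being that without Wt 12w replicate 2. With scaling by library size alone, which shifts the median of all genes at 12w to 0.43, the value was −0.36 and was not called (adjusted p = 0.17).

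At 2w the means of Jund were 169 ± 17.5 CPM in Tg7 and 175 ± 28.5 CPM in Wt islets, a log2 fold change of −0.05 (95% interval −0.47 to 0.37). From 2w to 12w it rose in Wt islets by 1.10 on the log2 scale (SE 0.20, edgeR adjusted p = 0.00206), whereas the change of 0.35 in Tg7 islets was not called (adjusted p = 0.269). The difference of the Tg7 effects was −0.75 (unadjusted p = 0.0162, adjusted p = 0.227). Gm11175, which overlaps Jund on the other strand, had 4 to 56 counts against 2210 to 6508. No source used here says whether reads were counted by strand, so reads of a gene and of its antisense neighbour cannot be told apart.

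Jun itself (chr4:94715725-94718913, minus strand, mm9), the strongest activator of the family, was not called in any comparison. Its libraries covered 40.6 to 73.3 CPM in Wt and 52.3 to 66.6 CPM in Tg7 islets at 12w. The log2 fold change was 0.01 at 12w (95% interval −0.41 to 0.42) and 0.28 at 2w (−0.13 to 0.70). Its antisense neighbour BC042782 had 8 to 74 counts against 322 to 1445.

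Taken as shares of the Jun family within a library, with counts divided by exon length, the family shifted between Junb and Jund at 12w. Junb made up 7.76%, 16.9% and 15.5% of the family in the 12w Wt libraries and 37.2%, 33.4% and 36.5% in the 12w Tg7 libraries. Jund made up 82.9%, 73.7% and 71.2% in Wt and 49.9%, 53.8% and 51.6% in Tg7. Neither share overlapped between genotypes, and in neither does the scaling of libraries take part. The log2 ratio of Junb to Jund counts averaged −1.21 ± 0.14 in Tg7 and −3.26 ± 0.72 in Wt islets (SD, n = 3; two-sided exact permutation p = 0.1, the smallest that 3 against 3 libraries allow). At 2w that ratio was −1.24 ± 0.22 in Tg7 and −1.59 ± 0.19 in Wt islets (exact permutation p = 0.2). At 2w the share of Junb was 32.2% in Tg7 and 28.4% in Wt islets, and these overlapped (exact permutation p = 0.3). That of Jund was 47.6% and 53.5%, and as at 12w it did not overlap between genotypes, at 46.1% to 49.7% in Tg7 and 50.8% to 56.3% in Wt islets (exact permutation p = 0.1, the smallest possible). These ratios were chosen after the values of their genes were seen.

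**Figure D2:**
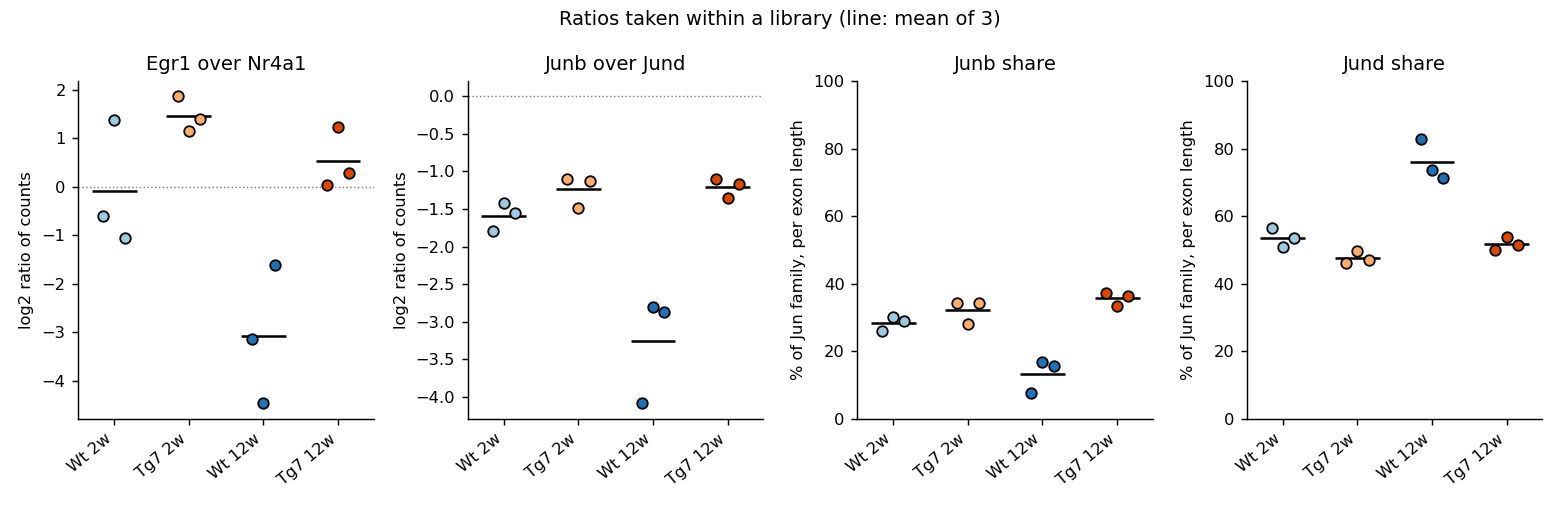
Ratios taken within each library, which do not depend on how libraries are scaled: log2 of Egr1 over Nr4a1 counts, log2 of Junb over Jund counts, and the percent of summed Jun, Junb and Jund, per exon length, that is Junb or Jund; points are libraries and lines are means of 3. At 12w the Wt libraries lie apart from the Tg7 libraries in all 4 panels, with a Junb share of 7.76% to 16.9% in Wt against 33.4% to 37.2% in Tg7 islets.

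Nr4a1 (chr15:101097277-101105223, plus strand, mm9) encodes the orphan nuclear receptor Nur77, which calcium and cAMP signals induce. Its 12w Wt libraries lay at 157, 434 and 61.3 CPM, a 7.09-fold range, and its 12w Tg7 libraries at 66.4, 31.5 and 63.2 CPM. The groups overlapped, since the lowest Wt library, replicate 4, was below both of the higher Tg7 libraries. That replicate also had 14.85% of counts on Ins1 and Ins2, against 29.99% and 27.01% in Wt 12w replicates 1 and 2. Whether this bears on its Nr4a1 level was not tested. The means of 53.7 ± 19.3 CPM in Tg7 and 218 ± 194 CPM in Wt islets (SD, n = 3) gave a log2 fold change of −2.02 (SE 0.54, edgeR adjusted p = 0.0153). Without Wt 12w replicate 2 the value was −1.01 and no longer called (adjusted p = 0.1), and without Tg7 12w replicate 2 it was −1.74 (adjusted p = 0.073).

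At 2w the Nr4a1 libraries did not overlap, at 72.2, 43.2 and 97.4 CPM in Wt and 30.5, 27.5 and 16.9 CPM in Tg7 islets. Every Tg7 library was below every Wt library. The log2 fold change was −1.51 (SE 0.54, unadjusted p = 0.0144, adjusted p = 0.0867), and thus not called in the model of all groups. It was called in edgeR on the 2w libraries alone (−1.51, adjusted p = 0.0106), without the filter on low counts (−1.52, adjusted p = 0.00932) and with replicate number as a block (−1.47, adjusted p = 0.0356). The Tg7 effects at both ages differed by −0.51, with an interval from −2.11 to 1.09. With age the log2 fold changes were 1.62 in Wt (adjusted p = 0.0542) and 1.11 in Tg7 islets (adjusted p = 0.201), neither of them called. The value in Wt islets was 0.61 without Wt 12w replicate 2 (adjusted p = 0.348) and 2.05, and called, without Wt 12w replicate 4 (adjusted p = 0.00328).

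Egr1 and Nr4a1 thus stood in different proportions in the genotypes at 12w. Within a library the log2 ratio of Egr1 to Nr4a1 counts was −3.14, −4.46 and −1.62 in Wt and 0.05, 1.23 and 0.29 in Tg7 islets. The ratios did not overlap between genotypes (two-sided exact permutation p = 0.1, the smallest possible). In CPM per kb of exon, Nr4a1 was above Egr1 in all 3 Wt libraries at 12w, and in Tg7 libraries it was above Egr1 in replicate 1 (26.85 against 22.1), about level in replicate 3 (25.55 against 24.99) and below it in replicate 2 (12.75 against 23.9). At 2w the ratio averaged 1.47 ± 0.37 in Tg7 and −0.09 ± 1.30 in Wt islets, where Wt replicate 2 lay at 1.38 among the Tg7 libraries (exact permutation p = 0.2).

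Ier2 (chr8:87185230-87186751, minus strand, mm9) had the lowest spread of the 10 genes among libraries of the same group. Its 12w Wt libraries lay at 10.97, 15.3 and 12.7 CPM and its 12w Tg7 libraries at 21.0, 16.4 and 19.8 CPM. The Tg7 libraries were all higher, by a small margin. The log2 fold change of 0.55 (SE 0.17, edgeR adjusted p = 0.0347) was lost without Wt 12w replicate 1 (0.43, adjusted p = 0.118), Wt 12w replicate 4 (0.53, adjusted p = 0.0618), Tg7 12w replicate 1 (0.49, adjusted p = 0.113) or Tg7 12w replicate 3 (0.52, adjusted p = 0.103). At 2w the means were 24.7 ± 3.46 CPM in Tg7 and 24.9 ± 2.96 CPM in Wt islets. Ier2 fell with age in Wt islets by 0.94 on the log2 scale (SE 0.17, edgeR adjusted p = 0.00264), and the change of −0.37 in Tg7 islets was not called (adjusted p = 0.176).

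Among Fos family members, which need a Jun partner to bind DNA, no call was made between genotypes. Fos (chr12:86814840-86818223, plus strand, mm9) lay at 15.8, 29.5 and 22.2 CPM in 2w Wt and at 15.5, 13.4 and 8.79 CPM in 2w Tg7 islets. The highest Tg7 library was just below the lowest Wt library. The log2 fold change of −0.84 (SE 0.32, unadjusted p = 0.0198, edgeR adjusted p = 0.106) did not pass the test; it did without the filter on low counts (−0.85, adjusted p = 0.0389) and with replicate number as a block (−0.85, adjusted p = 0.027). At 12w Fos was 15.3 ± 2.16 CPM in Tg7 and 19.5 ± 8.40 CPM in Wt islets, a log2 fold change of −0.34 (95% interval −1.03 to 0.35).

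Fosb (chr7:19888070-19895394, minus strand, mm9), whose truncated isoform is known to persist in stimulated neurons, changed with age. It lay at 7.48, 6.26 and 7.40 CPM in 2w Wt and at 23.2, 26.5 and 11.5 CPM in 12w Wt islets. All 12w libraries were higher, and the log2 fold change was 1.53 (SE 0.27, edgeR adjusted p = 0.00207). In Tg7 islets Fosb rose from 6.29 ± 1.04 to 12.1 ± 2.08 CPM (SD, n = 3), a log2 fold change of 0.94 (adjusted p = 0.0344). That call in Tg7 islets was lost without Tg7 2w replicate 1 (0.84, adjusted p = 0.118), Tg7 2w replicate 2 (0.91, adjusted p = 0.0882), Tg7 12w replicate 1 (0.85, adjusted p = 0.137) or Tg7 12w replicate 2 (0.89, adjusted p = 0.108), and with library size alone (0.82, adjusted p = 0.0562). Between genotypes at 12w the log2 fold change of Fosb was −0.75 (SE 0.27, unadjusted p = 0.0137, adjusted p = 0.0556). It was called by DESeq2 (adjusted p = 0.035), without the low-count filter (adjusted p = 0.0431), and without Wt 12w replicate 4, the lowest Wt library (−1.04, adjusted p = 0.00197).

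Fosl2 (chr5:32438845-32460204, plus strand, mm9), the Fos family member known for slow and lasting expression, was not called in any comparison. Its means were 74.0 ± 10.5 CPM in 2w Wt, 61.6 ± 17.1 CPM in 2w Tg7, 55.4 ± 13.9 CPM in 12w Wt and 46.8 ± 2.42 CPM in 12w Tg7 islets (SD, n = 3). Tg7 was below Wt by −0.27 on the log2 scale at 2w (95% interval −0.71 to 0.17) and by −0.24 at 12w (−0.69 to 0.21). Atf3 (chr1:192994175-193007219, minus strand, mm9) was among the lowest of the 10 at all ages and was not called either. It lay between 4.26 and 15.1 CPM over the 12 libraries, with log2 fold changes of 0.62 at 2w (−0.15 to 1.38) and −0.37 at 12w (−1.15 to 0.41).

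**Figure D3:**
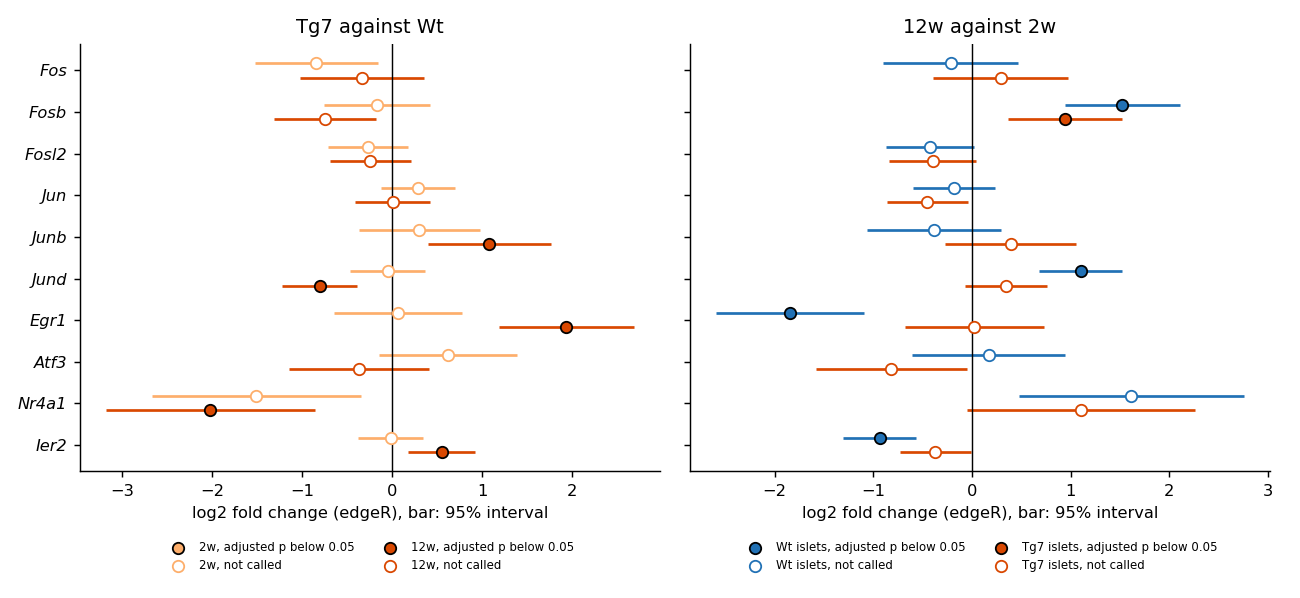
Log2 fold changes (edgeR, points) with 95% intervals (bars) of each immediate early gene for Tg7 against Wt islets at 2w and 12w (left) and for 12w against 2w in Wt and Tg7 islets (right); filled points have an adjusted p below 0.05. At 2w no point is filled, at 12w Egr1, Junb and Ier2 lie above 0 and Jund and Nr4a1 below it, and with age Egr1, Ier2, Jund and Fosb are filled in Wt islets and Fosb in Tg7 islets.

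With age, 4 of the 10 genes were called in Wt islets, beside 15.8% of tested genes. Fosb and Jund rose, beside 7.90% of tested genes, and Egr1 and Ier2 fell, beside 7.91%. These 4 were also the members whose groups did not overlap, beside 31.4% of tested genes. In Tg7 islets 1 of 10 was called, Fosb, which rose, beside 13.0% of tested genes (7.02% higher and 6.01% lower). Groups did not overlap for 7 of 10 in Tg7 islets, beside 40.7% of tested genes: Fosb, Junb, Jund and Nr4a1 were higher and Jun, Atf3 and Ier2 lower at 12w. The age comparison and the 12w genotype comparison share the 12w Wt libraries, so a low or high 12w Wt level enters both. For Egr1, Jund and Ier2 the 12w Wt mean stood apart from the other 3 groups: 19.2 against 68.9 to 73.4 CPM for Egr1, 375 against 169 to 215 CPM for Jund, and 13.0 against 19.1 to 24.9 CPM for Ier2.

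Levels of different genes were compared as CPM per kb of exon. Jund ranked first in each group, at 60.8 ± 9.93 in 2w Wt, 58.7 ± 6.09 in 2w Tg7, 130 ± 43.2 in Wt islets at 12w and 74.7 ± 5.61 in Tg7 islets at 12w. Fosb and Atf3 held the 2 lowest ranks in all 4 groups, with means of 1.68 to 5.44 and 2.85 to 5.04. In 2w Wt islets the order was Jund, Junb, Nr4a1, Egr1, Jun, Ier2, Fosl2, Fos, Atf3 and Fosb; libraries of neighbours overlapped from Junb down to Fos. In 2w Tg7 islets it was Jund, Junb, Jun, Egr1, Ier2, Fosl2, Nr4a1, Fos, Atf3 and Fosb, where Jun, Egr1 and Ier2, Fosl2 and Nr4a1, and Fos and Atf3 overlapped.

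At 12w the order in Wt islets was Jund, Nr4a1, Junb, Jun, Fosl2, Ier2, Fos, Egr1, Fosb and Atf3. All of these neighbours overlapped apart from Jun and Fosl2. In 12w Tg7 islets it was Jund, Junb, Egr1, Nr4a1, Jun, Ier2, Fosl2, Fos, Fosb and Atf3, with overlap between Egr1 and Nr4a1, Nr4a1 and Jun, and Fosb and Atf3. Egr1 took rank 8 in 12w Wt islets, at 6.18 ± 0.39 CPM per kb, and rank 3 or 4 in the other groups, at 22.2 to 23.7. Nr4a1 took rank 2 in 12w Wt and rank 7 in 2w Tg7 islets.

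By the median, libraries of the same group differed more in these genes than over all tested genes. After subtracting group means, the SD of log2 CPM had a median of 0.43 over the 10 members and of 0.27 over all tested genes, with 8 residual degrees of freedom. Nr4a1 had the highest SD, 0.85, at percentile 94 of all tested genes. Junb (0.51), Egr1 (0.50), Atf3 (0.50) and Fos (0.49) followed at percentiles 76.5 to 77.5. Fosb (0.37) stood at 66.6, Fosl2 (0.30) at 56.5, Jun (0.28) at 52.2, Jund (0.27) at 50.7 and Ier2 (0.20) at 32.1. These values pool groups that differed. Within single groups, the SD of Junb was 0.97 in 12w Wt and 0.09 to 0.24 in the others. That of Nr4a1 was 1.41 in 12w Wt and 0.45 to 0.60 in the others. For Egr1 it was 0.72 in Wt and 0.67 in Tg7 islets at 2w, and 0.09 in both at 12w.

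The deviations were partly shared. Over the 45 pairs of members the Pearson correlation of residuals over 12 libraries had a median of 0.41 and ranged from −0.39 to 0.83, with 36 pairs above 0. Over all pairs of tested genes the median was −0.001 with quartiles of −0.32 and 0.33. The highest values were those of Jun with Junb and of Fosl2 with Nr4a1 (both 0.83), and the lowest was that of Fosb with Egr1 (−0.39). Spearman values were lower for some pairs, such as Jund with Nr4a1 (0.50 against 0.77) and Fosb with Nr4a1 (0.26 against 0.60). They were higher for others, such as Junb with Ier2 (0.94 against 0.75). The points of these correlations share their libraries, and with them depth and scaling, so a single extreme library enters all pairs.

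Wt 12w replicate 2 lay above its group mean in all 10 members, with a mean standardised residual of 1.22. No other library reached that: the next were 8 of 10 members above the mean in Wt 2w replicate 1 and in Tg7 12w replicate 1, and Tg7 2w replicate 3 had 1 of 10. Wt 12w replicate 2 had 15764562 counts, a TMM factor of 0.80 and 27.0% of counts on Ins1 and Ins2, between the values of the other 12w Wt libraries for each of these. Outside the 10, the genes whose residuals ran closest to the members' mean were Plod3 (Pearson 0.974, Spearman 0.965 over 12 libraries), Tubb2a (0.968 and 0.944), Dnalc4 (0.947 and 0.895), Gm88 (0.943 and 0.874) and Rbm14 (0.942 and 0.902). They were picked as the highest of all tested genes outside the 10, with 8 residual degrees of freedom. High values therefore come with the choice.

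**Figure D4:**
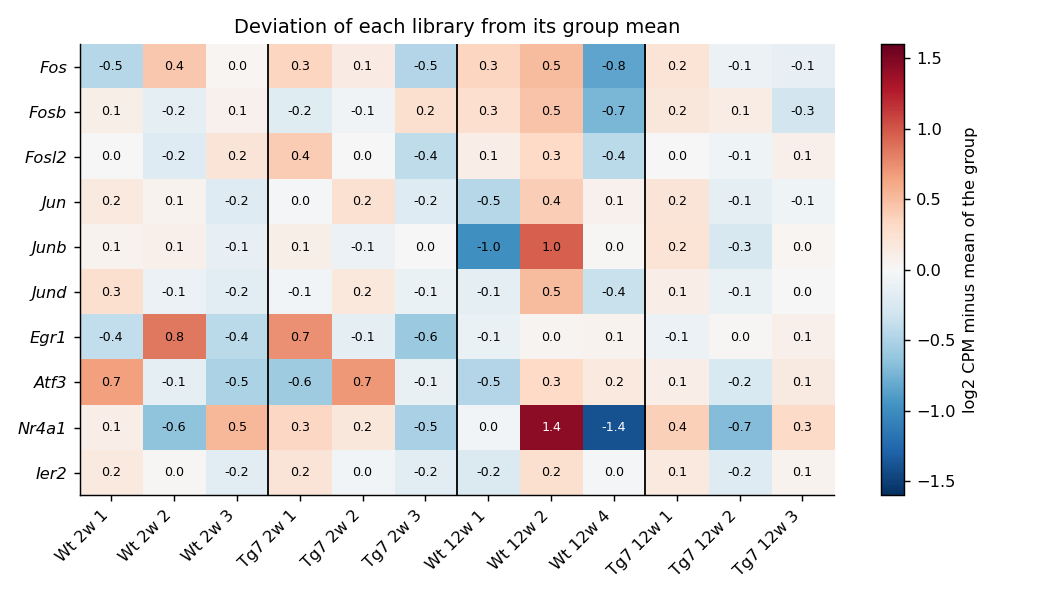
Log2 CPM of each immediate early gene in each library minus the mean of its group (red above, blue below the mean; numbers are rounded values). Wt 12w replicate 2 is above its group mean in all 10 genes, and the widest deviations are those of Nr4a1 and Junb in the 12w Wt libraries.

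Markers of islet cell types were counted as well. Of all tested genes 6.07% were called higher and 4.55% lower at 2w in Tg7 islets, and 12.5% and 11.2% at 12w. Of 9 stellate and fibroblast markers 6 were called higher at 2w and 8 at 12w in Tg7 than in Wt islets. Their summed level was 87.5 to 149 CPM in 12w Wt and 385 to 408 CPM in 12w Tg7 libraries. At 12w 7 of 8 endothelial markers were called higher, with sums of 318 to 435 CPM in Wt and 601 to 665 CPM in Tg7 libraries, and at 2w 0 were called, with 0 at an unadjusted p below 0.05 in edgeR. In Wt islets all 8 endothelial markers were called lower at 12w than at 2w, beside 7.91% of tested genes. Of 8 β-cell markers 7 were called lower at 2w and 6 at 12w. Their summed level was 195700 to 479400 CPM in 12w Wt and 100000 to 105400 CPM in 12w Tg7 libraries. Of the other lists, none of 5 alpha and 3 delta cell markers was called at either age, with none at an unadjusted p below 0.05 in edgeR. Macrophage markers showed 1 of 9 called higher at 2w and 1 lower at 12w, and acinar markers the same with 9 tested. Of 6 ductal markers 2 were called higher at 12w, as were 1 of 3 erythroid and the 1 tested adipocyte marker, and 1 of 2 PP cell markers was called higher at 2w. The 1 tested lymphocyte marker was not called. In Tg7 2w replicate 1 the 5 lymphocyte markers summed to 25.2 CPM, against 3.12 and 6.41 CPM in the other Tg7 2w libraries. Its macrophage markers summed to 101.6 CPM, against 60.1 and 53.95 CPM. That library also had the highest Egr1 of its group, at 110.9 CPM. Wt 2w replicate 2, with the highest Egr1 of its group (112.5 CPM), had lymphocyte and macrophage sums of 2.58 and 51.4 CPM. The part of these cells in the levels of Egr1, Junb, Ier2, Jund and Nr4a1 was not tested.

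Other genes of the same response were counted from 6 lists. Of 51 tested primary response genes outside the 10, 6 were called higher and 4 lower at 2w, and 15 higher and 9 lower at 12w. The 10 calls at 2w are 19.6% and the 24 at 12w are 47.1% of the list, beside 10.6% and 23.6% of all tested genes. Their median log2 fold change was 0.16 at 2w and 0.18 at 12w, beside 0.03 and −0.01 over all tested genes, values that also stand beside the medians of the lists that follow. At 12w the highest calls were Egr2, the paralogue of Egr1 (2.47, SE 0.40, edgeR adjusted p = 0.000533), and the matricellular genes Ctgf (1.99) and Cyr61 (1.497). The lowest calls were the kinase Plk3 (−2.88, SE 0.26), the MAP kinase phosphatase Dusp4 (−2.12) and the neuronal activity factor Npas4 (−1.74), whose groups overlapped.

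Egr2 stood at 3.33 ± 0.35 CPM in 12w Tg7 and at 0.55 ± 0.37 CPM in 12w Wt islets (SD, n = 3). At 2w it was not called, with 6.39 ± 1.01 CPM in Tg7 and 4.62 ± 0.40 CPM in Wt islets. With age Egr2 fell in Wt islets (log2 fold change −2.95, edgeR adjusted p = 0.000251). Nr4a2 and Nr4a3, the paralogues of Nr4a1, were not called at 12w, with log2 fold changes of −0.37 and −0.66, nor at 2w, with −0.49 and 0.29. At 2w the list's highest calls were Tnfaip3 (1.07), Klf2 (1.03) and Fosl1 (1.01), and its lowest were Plk3 (−3.35), Dusp4 (−1.56) and the cAMP-responsive Crem (−0.87). The 3 highest varied more between Tg7 than between Wt libraries. Tnfaip3 was 14.6 ± 7.15 CPM in Tg7 and 6.97 ± 0.64 CPM in Wt islets (SD, n = 3). Klf2 was 8.25 ± 2.31 and 4.06 ± 1.15 CPM, and Fosl1 13.1 ± 4.61 and 6.49 ± 1.29 CPM.

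The 2w count of that list fell to 3 of 51 when Wt 2w replicate 3 was left out. It fell to 5 when the library omitted was Tg7 2w replicate 1 or either of the other Wt libraries. Calls over all tested genes were 912 of 16459, 1036 of 16472 and 754 of 16437 without Wt 2w replicates 1, 2 and 3. Without Tg7 2w replicates 1 and 2 they were 1700 of 16362 and 1350 of 16434. At 12w they were 2522 of 16413, 2417 of 16401 and 2418 of 16405 without Tg7 12w replicates 1, 2 and 3. These counts also stand beside the omissions in the lists that follow.

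Of 12 tested partners that can dimerise with Fos or Jun proteins, 2 were called higher and 1 lower at 2w, and 1 higher and 2 lower at 12w. That is 25% of the list at each age, beside 10.6% and 23.6% of all tested genes, with medians of −0.09 and −0.26. Fosl1 was higher at both ages, with log2 fold changes of 1.01 and 1.07. Mafa, also a β-cell maturity factor, fell from 214 ± 34.8 CPM in Wt to 7.79 ± 0.78 CPM in Tg7 islets at 2w and from 129 ± 72.1 to 3.98 ± 0.53 CPM at 12w (SD, n = 3). Maf was higher at 2w (1.18), at 31.2 ± 16.6 CPM in Tg7 and 13.8 ± 1.30 CPM in Wt islets. Mafk was lower at 12w (−0.67). The 2w count was 1 without any 1 of the Wt 2w libraries, and the 12w count was 1 without Tg7 12w replicate 2.

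Among 32 kinases and factors upstream of these promoters, 2 were called lower at 2w, and 4 higher and 5 lower at 12w. These are 6.25% and 28.1% of the list, the first below and the second near the 10.6% and 23.6% of all tested genes, with medians of −0.08 and −0.02. Srf, which binds the CArG box, was 34.6 ± 3.63 CPM in Tg7 and 72.4 ± 17.1 CPM in Wt islets at 12w, a log2 fold change of −1.07 (SE 0.16, edgeR adjusted p = 0.000369). Its coactivator gene Mkl2 was higher (0.52), as were Mef2c (1.77) and the p38 kinase gene Mapk11 (1.74). The ribosomal S6 kinase genes Rps6ka3 (−0.84) and Rps6ka2 (−0.80) were lower, the latter also at 2w (−0.55), when the JNK gene Mapk10 was lower too (−0.68). The 12w count was 5 without Tg7 12w replicate 1 or 2, and the 2w count was 1 without any 1 of the Wt 2w libraries or Tg7 2w replicate 1.

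Of 15 feedback inhibitors of MAP kinase signalling, 1 was called higher and 1 lower at 2w, and 4 higher and 2 lower at 12w. These are 13.3% and 40% of the list, beside 10.6% and 23.6% of all tested genes, with medians of −0.02 and 0.06. Spry1 (1.57), the ERK phosphatase gene Dusp6 (1.14) and Spred1 (0.95) were higher at 12w, and Dusp4 (−2.12) and the stress kinase phosphatase gene Dusp10 (−0.75) were lower. Spred1 was higher at 2w too (0.70). Dusp1, Dusp2, Dusp4, Dusp5 and Dusp6 stand in both this list and that of primary response genes. The 2w count was 1 when any 2w library other than Tg7 2w replicate 3 was left out.

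Heat shock and stress genes were included because islet handling can induce them. Of 12 heat shock genes 1 was called higher at 2w, Hspb8 (0.73). At 12w Hspb8 was higher (1.51), and Hspa1a (−0.92, groups overlapping) and Hsp90aa1 (−0.55) were lower. The calls are 8.33% and 25% of the list, near the 10.6% and 23.6% of all tested genes, with medians of −0.14 at both ages. That 12w count was 1 without Tg7 12w replicate 1 or 2, and none was called at 2w when Wt 2w replicate 3 was left out. Hspa1a has a near-identical neighbour, Hspa1b, so its counts are uncertain.

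Of 15 integrated stress response genes, none was called at 2w (edgeR; 1 had an unadjusted p below 0.05, and DESeq2 called 0). At 12w 3 were called lower, Nupr1 (−3.20), Ddit3 (−1.20) and Vldlr (−0.78), 20% of the list beside 23.6% of all tested genes, and the list's median was −0.87 (−0.26 at 2w). Leaving out Wt 12w replicate 1 gave 7 calls at 12w, and leaving out Wt 12w replicate 4 or any 1 of the Tg7 12w libraries gave 1. Over all tested genes, calls were 3720 of 16459 without Wt 12w replicate 1 and 3917 of 16460 without Wt 12w replicate 4. At 2w, 1 gene was called when Wt 2w replicate 1 was omitted. The 12w count was 6 in edgeR on the 12w libraries alone, 7 without the filter on low counts, and 1 with upper-quartile factors or library size alone.

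**Figure D5:**
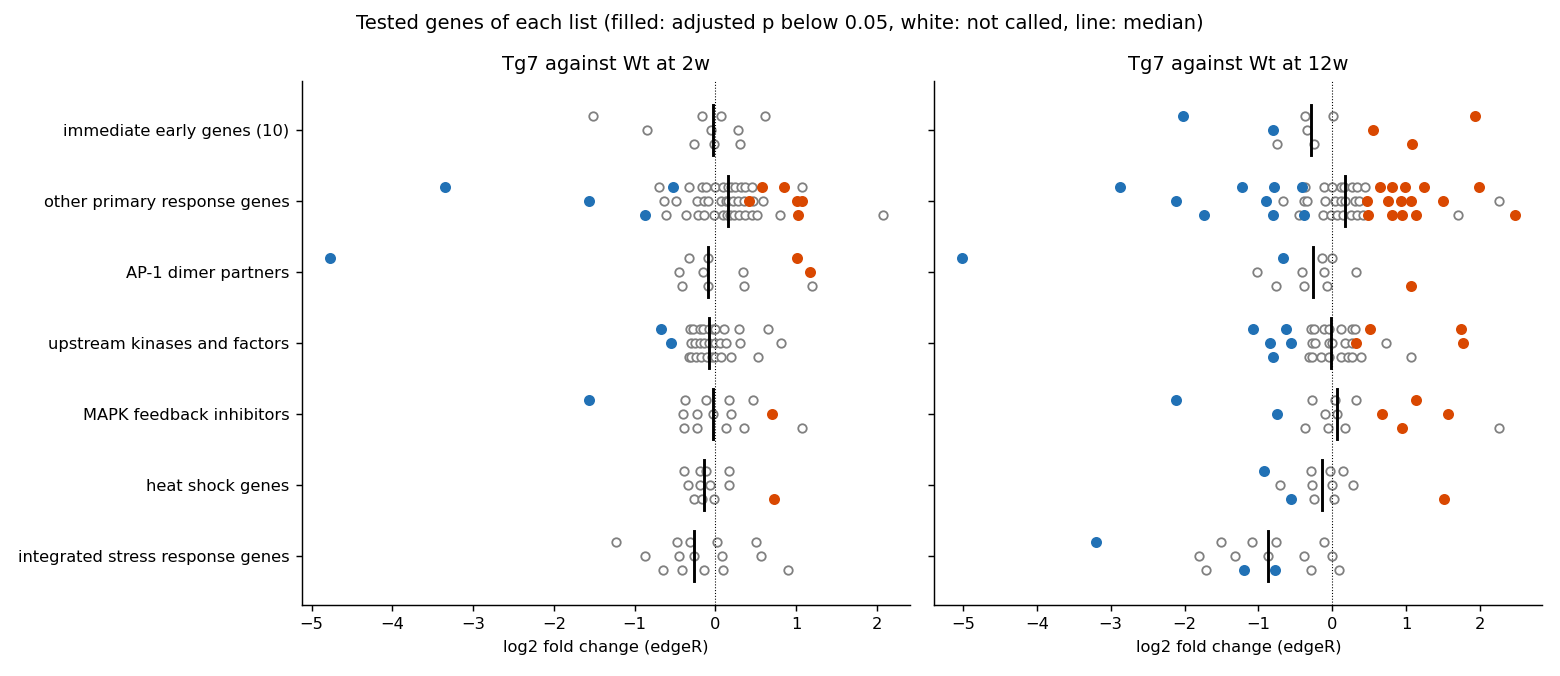
Log2 fold changes (edgeR) of the tested genes of each list for Tg7 against Wt islets at 2w and 12w; points are genes, offset only to separate them, orange and blue points are called higher and lower, white points are not called and the line is the median. Of the 10 immediate early genes none is called at 2w and 5 are at 12w, 3 of them higher and 2 lower.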

How the data were processed

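Islet RNA libraries (NEB Ultra II kit) were sequenced as paired-end reads. Per the labels and the study's methods, the authors trimmed reads with Trimmomatic, aligned them to mm9 with TopHat2 2.0.11 and deposited raw counts per Ensembl gene from featureCounts, with no source used here saying whether strand was used. All 12 columns of counts were used, with groups from the sample labels.

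Low-count genes were removed by filterByExpr in edgeR, with a minimum count of 10 and a minimum total of 15; the rest were scaled by TMM and fitted with edgeR 4.0.16 (R 4.3.3, limma 3.58.1) as group means. Standard errors are the log2 fold change over the square root of F, and log2 CPM used a prior count of 2. The script was tested on simulated data. Alternatives were DESeq2 1.42.0, each age alone, other scalings and filters, replicate number as a block, and each library left out. Figures used matplotlib 3.10.9. No 2 libraries of the same group agreed within sampling noise, and libraries of different groups were not compared in this way.

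Same-numbered libraries were not treated as pairs, since the labels do not say what the numbers mean. Their residuals correlated between −0.167 and −0.011, which cannot tell whether they were pairs. Members, lists and tests were chosen with earlier results of these data known, and all members are named. From each other list up to 3 genes per direction with the largest called change at each age are named, as are the 5 genes most like the members; Nr4a2, Nr4a3 and the ratios were chosen after their values were seen. Marker lists covered β, alpha, delta, PP, acinar, ductal, endothelial, macrophage, stellate and fibroblast, lymphocyte, erythroid and adipocyte cells. Names came from the mm9 Ensembl annotation, and exon lengths are union lengths.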

Additional observations from a re-analysis of the deposited data

Results flagged for a closer look

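None of the 10 immediate early genes met a rule for a closer look, since none had a called difference between the Tg7 effects at 12w and 2w in edgeR with all libraries, and groups of 3 are too small for a test of outlying libraries. Among the named genes of the other lists, 5 had a called difference. The difference, 12w minus 2w on the log2 scale, was 1.84 for Ctgf (adjusted p = 0.00433), 1.81 for Mef2c (adjusted p = 0.00534), 1.39 for Spry1 (adjusted p = 0.0162), 0.951 for Mapk10 (adjusted p = 0.026) and −4.10 for Nupr1 (adjusted p = 0.0142). Ctgf fell with age in both genotypes, from 75.1 ± 12.0 to 8.47 ± 0.96 CPM in Wt and from 83.4 ± 24.0 to 33.9 ± 2.72 CPM in Tg7 islets (SD, n = 3). Mapk10 was lower in Tg7 islets at 2w (−0.68) and not called at 12w (0.27).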

How the results depend on the processing

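The count of members called between genotypes at 2w was 0 and became 1 in edgeR on each age alone and 2 without the filter or with the replicate block. At 12w it was 5, and 3 with each age alone. For the difference of the Tg7 effects it was 0, and 1 with DESeq2, library size alone or no filter. For age in Tg7 islets it was 1, and 0 with library size alone. Other counts changed by under 1.5 times apart from 2 lists: upstream kinases and factors at 2w gave 1 with library size alone, and the integrated stress response gave 1 at 2w with each age alone or no filter, and at 12w 6 with each age alone, 7 with no filter and 1 with library size alone or upper-quartile factors.

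Leaving out libraries gave 0 to 0 members at 2w, 3 to 4 at 12w, 0 to 1 for the difference, 4 to 5 for age in Wt and 0 to 1 for age in Tg7 islets. Over all tested genes these omissions gave 754 to 1700 calls at 2w, 2417 to 4036 at 12w and 82 to 579 for the difference. They gave 1336 to 4020 for age in Wt and 1115 to 1708 for age in Tg7 islets. Lists ranged at 2w and 12w from 3 to 8 and 16 to 24 (primary response), 1 to 2 and 1 to 4 (AP-1 partners), 1 to 2 and 5 to 10 (upstream), 1 to 2 and 4 to 6 (feedback), 0 to 1 and 1 to 3 (heat shock), and 0 to 1 and 1 to 7 (integrated stress response).

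Signs turned only for values that were not called. With library size alone these were Fos (0.13), Fosl2 (0.22) and Atf3 (0.052) at 12w, Fosb (0.006), Jund (0.12) and Ier2 (0.16) at 2w, Egr1 with age in Tg7 (−0.10) and Atf3 with age in Wt islets (−0.18). Upper-quartile factors gave Jund 0.006 and Ier2 0.04 at 2w, the stricter filter Ier2 0.006 at 2w, and each age alone Jun −0.016 at 12w. With libraries left out, signs turned within −0.39 to 0.61 (Egr1), −0.131 to 0.064 (Ier2) and −0.142 to 0.087 (Jund) at 2w, −0.21 to 0.22 (Jun) at 12w, −0.066 to 0.579 (Atf3), −0.49 to 0.11 (Fos) and −0.391 to 0.024 (Jun) with age in Wt, −0.22 to 0.48 (Egr1) with age in Tg7, and −0.16 to 0.27 (Fosl2) and −0.95 to 0.50 (Nr4a1) for the difference.

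The replicate block, for numbers whose meaning the labels do not give, turned Fos (0.016) and Atf3 (−0.007) with age in Wt and Fosl2 (−0.14) for the difference. With it Fos and Nr4a1 at 2w, Fosb at 12w (−1.04) and Nr4a1 with age in Wt islets (2.18) were called, and Junb (1.08, edgeR adjusted p = 0.067) and Ier2 (0.57, adjusted p = 0.0662) at 12w were not. Number 4 belongs to 1 library, Wt 12w replicate 4, which the block therefore removes from the comparisons.

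Nr4a1 with age in Wt islets was also called by DESeq2 (1.63), without the filter (1.59) and without Wt 12w replicate 4 (2.05), and was 0.61 without Wt 12w replicate 2, Fosl2 with age in Wt islets with library size alone (−0.84), and Ier2 at 12w was not with each age alone (0.52). The causes of these changes were not tested. Library size alone moved the median of all genes to 0.19 at 2w, 0.43 at 12w, −0.35 with age in Wt and −0.13 with age in Tg7 islets, and 84.0% and 93.5% of the genotype calls at 2w and 12w were then higher, against 57.2% and 52.7%. With a library left out, the remaining 2 are assumed to vary like the other groups. The spread of the members was 0.40 with library size alone, and the order of levels was the same.

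Over all tested genes, calls for the difference of the Tg7 effects numbered 188, and 566 with DESeq2, 347 with library size alone, 420 without the filter and 502 with the replicate block. Age in Wt islets gave 2524 calls, and 4120 with library size alone and 3817 with the block, and the genotype at 2w gave 1695 and 2630 with the block. Leaving out libraries lowered these counts to as few as 754 at 2w (Wt 2w replicate 3) and 2417 of 3772 at 12w (Tg7 12w replicate 2), while the difference ran from 82 (Tg7 12w replicate 1) to 579 (Wt 12w replicate 4). With library size alone 7.89% of the calls with age in Wt islets were higher against 50%, 37.8% against 53.9% in Tg7 islets and 93.1% against 73.9% for the difference, and upper-quartile factors gave 64.7% at 12w against 52.7%.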
